A study of Homo sapiens with 9 samples.

Results

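The genes described here encode the enzymes, transporters and regulators of glycolysis, the pentose phosphate pathway and glycogen metabolism. They are 33 genes picked by symbol for their known roles from the 26485 symbols of an RNA sequencing count table. Earlier results of these data were known when the genes were picked. The cells were MV4;11, a human acute myeloid leukaemia line, untreated and grown in RPMI medium, and 9 libraries were measured. Of these, 3 came from cells with the K148R substitution in the transcription factor MYC, in which arginine replaces a lysine, 3 from cells with K148Q, in which glutamine replaces it, and 3 from parental cells. The sources used here do not say how the substitutions were made, whether each mutant line was 1 clone, or whether the libraries came from separate cultures. Gene counts do not show the substitution itself, so the genotypes rest on the labels. The p-values therefore measure the spread between these libraries, which may be technical.

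Glycolysis splits glucose taken up by the cell into pyruvate, which lactate dehydrogenase reduces to lactate or the mitochondria oxidise. The pentose phosphate pathway branches off at glucose phosphate and yields NADPH, the reductant of biosynthesis, and ribose phosphate for nucleotides, while glycogen stores glucose for later release. MYC is known to bind canonical E-boxes, the sequence CACGTG, and to induce several glycolytic genes, among them LDHA and HK2, and the hypoxia-inducible factors induce many of the same genes.

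The libraries held 13747087 to 18938391 counts, and the 33 genes took up 1.57% to 1.60% of the counts in K148R libraries, 1.67% to 1.84% in K148Q libraries and 1.74% to 1.76% in parental libraries. Levels are CPM, counts scaled to library sizes corrected by the TMM method. Fold changes are log2, with the standard error. A gene was called changed when its adjusted p was under 0.05 in edgeR's quasi-likelihood test, over the 12845 genes that passed a filter on low counts. All 33 genes passed that filter. The K148Q libraries were the most uneven: replicate 3 differed from replicates 1 and 2 far beyond counting noise. The chi-square per degree of freedom was 17.3 and 17.8, against 1.34 between replicates 1 and 2. Between K148R libraries it was 3.01 to 5.21, and between parental libraries 1.54 to 1.62. The deviations of K148Q replicate 3 from the K148Q mean ran with gene GC content (Spearman rho -0.72, against 0.57 and 0.58 in replicates 1 and 2). In K148R replicates 1, 2 and 3 the rho was 0.44, 0.03 and -0.41. Deviations from a mean of 3 libraries balance out, so the signs within a group are not independent. These coefficients run over genes, not over samples. For the 33 genes, results that rest on K148Q replicate 3 are given without it as well. For the other genes named below they are not. Myeloid identity markers of the line were detected in every genotype and summed to 3780 to 3860 CPM in K148R, 2450 to 2530 CPM in K148Q and 1660 to 1690 CPM in parental libraries. Markers of T, B and NK cells summed to 25.2 to 30.6 CPM in the mutant libraries and 51.5 to 58.6 CPM in parental libraries, with CD3E, MS4A1 and KLRD1 at 0 in all 9 libraries. Erythroid markers summed to 6.51 to 8.54 CPM in K148R, 16.9 to 21.3 CPM in K148Q and 19.7 to 20.3 CPM in parental libraries. Epithelial and fibroblast markers summed to 5.60 to 8.95 CPM in K148R, 0.847 to 1.80 CPM in K148Q and 27.4 to 31.1 CPM in parental libraries, with EPCAM at 0 throughout. In K148R cells, where 37.3% of all genes tested fell, 12 of 12 cell division genes did so. They summed to 869 to 892 CPM in K148R, 5640 to 5730 CPM in K148Q and 6200 to 6260 CPM in parental libraries. Of 8 tested monocyte and macrophage markers, 6 rose and 1 fell in K148R, and 5 rose in K148Q against parental cells. Of the 10 myeloid identity markers, 8 rose and 2 fell in K148R, and 7 rose and 1 fell in K148Q cells. Over all genes tested, 37.8% rose and 37.3% fell in K148R, and 27% rose and 26.3% fell in K148Q cells. The 12 listed monocyte and macrophage markers summed to 2350 to 2390 CPM in K148R, 928 to 989 CPM in K148Q and 437 to 449 CPM in parental libraries, with MRC1 at 0 throughout. RNAs without a poly(A) tail summed to 510 to 625 CPM in K148R, 18.0 to 22.9 CPM in K148Q and 17.0 to 47.8 CPM in parental libraries. The sums of these lists thus move with one or both mutant genotypes, and their part in the results below was not tested for either mutant. In bulk RNA, fewer cells of a type and less RNA per cell cannot be told apart.

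The module did not move as a block in either mutant. Against parental cells, 11 of the 33 genes rose in K148R cells and 16 fell, against a background of 37.8% and 37.3% of all genes tested and 75.1% in either direction. The changes of at least 2-fold were 2 rises and 8 falls, where 14.4% and 14.8% of all genes changed that much. In K148Q cells 14 rose and 14 fell (background 27% and 26.3%, 53.3% in either direction), with 2 rises and 3 falls of at least 2-fold (background 4.71% and 6.68%). With the mutants set against each other, 8 genes were higher and 15 lower in K148R than in K148Q cells (background 36.6% and 34.5%, 71% in either direction), of which 2 and 3 differed at least 2-fold (background 13.8% and 12.1%).

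Read against those backgrounds, the share of the 33 genes called was 81.8% in K148R against parental cells, 84.8% in K148Q against parental cells and 69.7% in K148R against K148Q cells. Their median log2 fold change was -0.21 in K148R and 0.02 in K148Q cells against parental cells, where the medians over all genes tested were 0.00 and -0.01, and it was -0.09 between the mutants against 0.02 over all genes. The median size of change, regardless of sign, was 0.57 in K148R against parental cells, where it was 0.58 over all genes, and 0.45 in K148Q against parental cells, where it was 0.30 over all genes. Between K148R and K148Q cells it was 0.40, against 0.51 over all genes. Every K148R library lay above every parental library for 13 of the 33 genes and below for 16, where 40.4% and 40.2% of all genes did so. For K148Q against parental libraries these counts were 15 and 15 (29.8% and 29.7% of all genes), and for K148R against K148Q libraries 8 and 15 (37% and 34.5%). Both mutant comparisons use the same 3 parental libraries, so their values are not independent of each other. As the 33 genes were picked with earlier results known, these shares describe them and test nothing.

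**Figure D1:**
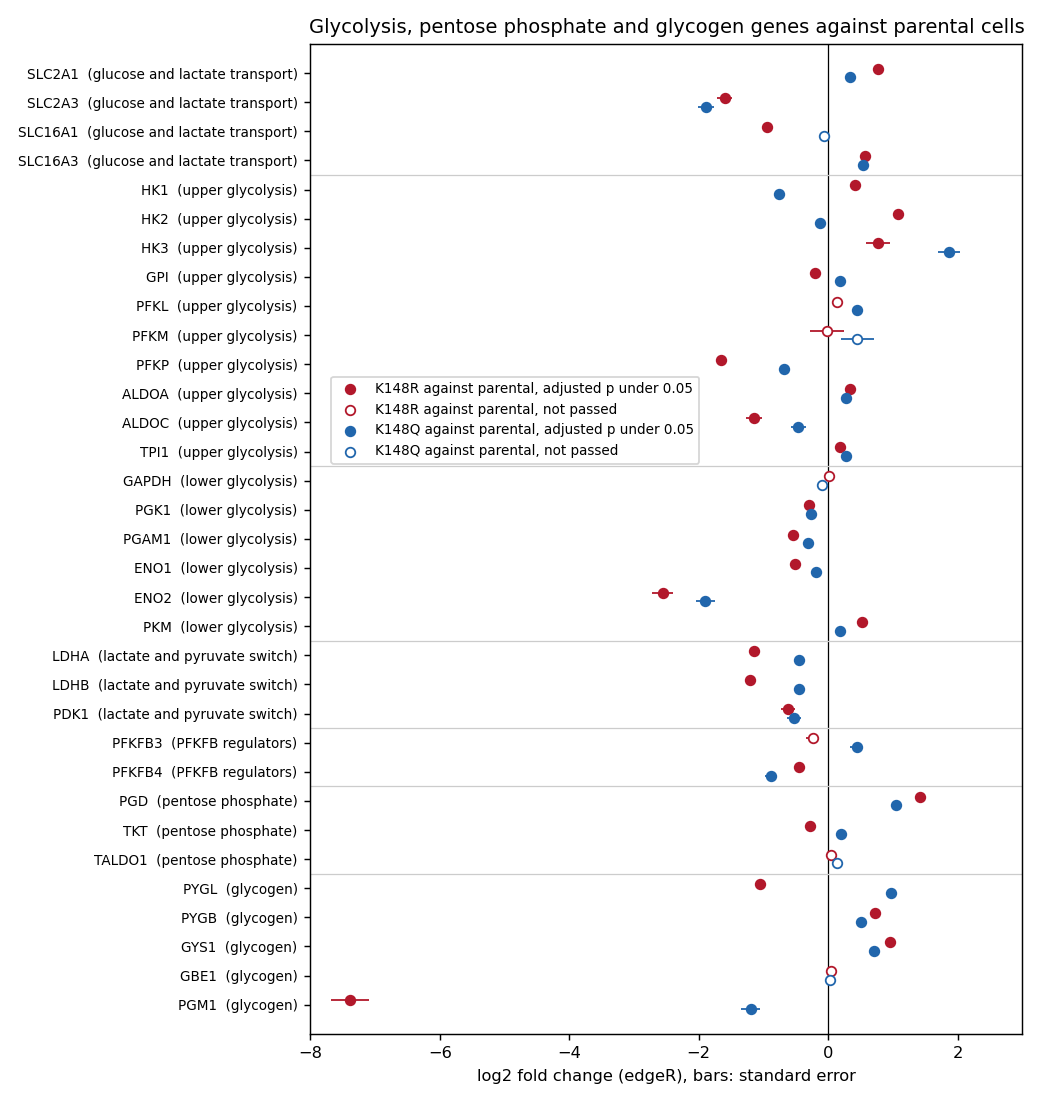
Log2 fold change (x axis) of the 33 genes against parental cells, grouped by role down the page, for K148R and K148Q cells, with bars of 1 standard error from edgeR. LDHA, LDHB and PFKP lie left of 0 in both mutants and PGD right of 0 in both, while HK1 and PYGL have opposite signs in K148R and K148Q cells.

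Among the transporters that bring glucose in and take lactate out, the more abundant member of each pair rose in both mutants. SLC2A1, which encodes the widespread glucose transporter GLUT1, had 288, 275 and 281 CPM in K148R, 213, 221 and 191 CPM in K148Q and 166, 164 and 164 CPM in parental libraries. The 3 groups did not overlap, with K148R highest and parental lowest, and the rise was called in K148R (log2 fold change 0.77 ± 0.058, adjusted p = 1.3e-08) and in K148Q cells (log2 fold change 0.34 ± 0.058, adjusted p = 0.00021). SLC2A3, which encodes GLUT3, a transporter with a higher affinity for glucose, had 8.82, 7.18 and 9.23 CPM in K148R, 6.13, 7.46 and 7.13 CPM in K148Q and 27.9, 25.0 and 24.1 CPM in parental libraries. Every mutant library lay below every parental library, and SLC2A3 fell 3.04-fold in K148R (log2 fold change -1.60 ± 0.117, adjusted p = 9.2e-09) and 3.71-fold in K148Q cells (log2 fold change -1.89 ± 0.121, adjusted p = 1.1e-08). The mutants overlapped (log2 fold change 0.29 ± 0.132, adjusted p = 0.062), although the difference between them passed without K148R replicate 2 (0.38, adjusted p = 0.02), with upper-quartile scaling (0.33, adjusted p = 0.037) and after a correction for gene GC content and length (0.33, adjusted p = 0.021). SLC2A14 is a near-identical copy of SLC2A3, so reads could be shared between them. It had 0.544, 0.813 and 0.434 CPM in K148R, 0, 0.0684 and 0.0620 CPM in K148Q and 1.99, 1.59 and 1.49 CPM in parental libraries. Its 2 counts in all K148Q libraries against 80 in parental libraries make a ratio 39.1-fold lower (95% counting interval 10.5 to 328).

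For lactate export, SLC16A1, which encodes the monocarboxylate carrier MCT1, had 45.7, 43.0 and 47.8 CPM in K148R, 76.6, 79.1 and 93.4 CPM in K148Q and 83.3, 91.6 and 87.3 CPM in parental libraries. K148R libraries lay below the others, and SLC16A1 fell in K148R against parental (log2 fold change -0.94 ± 0.081, adjusted p = 6.6e-08) and against K148Q cells (log2 fold change -0.87 ± 0.081, adjusted p = 2e-07). In K148Q against parental cells it did not pass (log2 fold change -0.07 ± 0.079, adjusted p = 0.46), but without K148Q replicate 3 it did (-0.16, adjusted p = 0.02). SLC16A3, the MCT4 carrier of glycolytic cells, had 308, 293 and 287 CPM in K148R, 296, 305 and 260.1 CPM in K148Q and 194, 195 and 209 CPM in parental libraries. It rose in K148R (log2 fold change 0.57 ± 0.063, adjusted p = 1.1e-06) and K148Q cells (log2 fold change 0.53 ± 0.063, adjusted p = 8.1e-06), and the mutants overlapped. The same correction, called GC and length correction below, reduced the K148R change to 0.27 (adjusted p = 1.6e-07) and made K148R lower than K148Q cells (-0.17, adjusted p = 8.3e-05).

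Of the hexokinases, which trap glucose in the cell by phosphorylating it, HK1 and HK2 rose in K148R cells and not in K148Q cells, while HK3 rose in both. HK2, the inducible hexokinase of growing cells, had 315, 324 and 316 CPM in K148R, 142, 139 and 133 CPM in K148Q and 151, 149 and 151 CPM in parental libraries. K148R libraries were about as far above the K148Q as above the parental libraries, and HK2 rose 2.12-fold against parental (log2 fold change 1.08 ± 0.049, adjusted p = 4.3e-11) and 2.31-fold against K148Q cells (log2 fold change 1.21 ± 0.049, adjusted p = 1.6e-11). The fall of HK2 in K148Q cells was small (log2 fold change -0.12 ± 0.049, adjusted p = 0.047) and was lost in 11 of 15 alternatives, while the GC and length correction made it -0.24 (adjusted p = 1.6e-06). Its adjusted p was 0.06, 0.086 and 0.07 without K148Q replicates 1, 2 and 3 (log2 fold changes -0.14, -0.13 and -0.09). It was 0.12, 0.095 and 0.12 without parental replicates 1, 2 and 3 (-0.12, -0.13 and -0.12). HK1, the housekeeping hexokinase, had 124, 129 and 118 CPM in K148R, 58.1, 57.4 and 48.3 CPM in K148Q and 93.0, 95.1 and 90.1 CPM in parental libraries. The 3 groups did not overlap. HK1 rose in K148R (log2 fold change 0.41 ± 0.072, adjusted p = 1e-04, 0.21 after GC and length correction) and fell in K148Q cells (log2 fold change -0.76 ± 0.074, adjusted p = 9e-07), a 2.26-fold difference between the mutants (log2 fold change 1.18 ± 0.074, adjusted p = 2.1e-09). HK3, a hexokinase of myeloid cells, was low, with 5.22, 5.83 and 4.09 CPM in K148R, 11.9, 11.2 and 9.17 CPM in K148Q and 3.01, 3.33 and 2.56 CPM in parental libraries. It rose in both mutants, 1.7-fold in K148R (log2 fold change 0.77 ± 0.184, adjusted p = 0.0015) and 3.63-fold in K148Q cells (log2 fold change 1.86 ± 0.169, adjusted p = 4.5e-07), and was lower in K148R than in K148Q cells (log2 fold change -1.09 ± 0.155, adjusted p = 1.6e-05).

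HK2 and LDHA are the members with a listed promoter window that holds 2 canonical E-boxes, so these windows are shown. The E-boxes are in capitals, everything else in lower case, and each window runs 5′ to 3′ from 250 bases before to 50 bases after a transcription start listed by RefSeq on GRCh38.p14. The HK2 window is chr2:74834920-74835219 on the plus strand, with E-boxes starting 194 and 149 bases before the start, and the LDHA window is chr11:18394313-18394612 on the plus strand, with E-boxes starting 185 and 87 bases before it.
HK2: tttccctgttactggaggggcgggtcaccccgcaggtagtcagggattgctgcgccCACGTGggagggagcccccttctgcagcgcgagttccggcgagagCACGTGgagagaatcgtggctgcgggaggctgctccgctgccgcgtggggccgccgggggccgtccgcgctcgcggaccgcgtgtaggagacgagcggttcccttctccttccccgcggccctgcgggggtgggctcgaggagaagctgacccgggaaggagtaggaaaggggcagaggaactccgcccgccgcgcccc
LDHA: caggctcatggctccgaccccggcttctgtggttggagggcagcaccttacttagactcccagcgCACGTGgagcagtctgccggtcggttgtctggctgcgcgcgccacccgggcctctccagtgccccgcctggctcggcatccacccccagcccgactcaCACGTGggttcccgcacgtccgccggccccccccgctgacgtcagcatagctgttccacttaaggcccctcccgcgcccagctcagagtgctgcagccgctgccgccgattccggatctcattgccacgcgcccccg
HK2 rose in K148R cells, and LDHA, described further on, fell in both mutants. The 2 windows held the same number of E-boxes, and the 2 genes changed in opposite directions in K148R cells. Whether the E-boxes had a part in these changes was not tested. The HK2 window lies inside the HK2 gene as GENCODE v29 places it (chr2:74833981-74893359), at a later listed start. In K148Q cells HK2 did not rise. Each of the 2 genes also has a listed window without CACGTG (chr2:74833877-74834176 and chr11:18396101-18396400). Which start these cells use was not tested. Of the 33 genes, 31 matched the RefSeq promoter table, with 59 windows among them, and 6 windows (10.2%) held CACGTG, against 7.2% of all 34943 windows. ALDOA, ALDOC, GAPDH and PFKFB3 held 1 each. The hypoxia response core, ACGTG or GCGTG on either strand, was in 36 of the 59 windows (61.0%) and in 48.4% of all windows. Every CACGTG also contains ACGTG and counts in both searches, and the members' windows had a mean GC content of 65.2%, against 57.5% over all. A match is a run of letters, not a site shown to be bound.

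Phosphofructokinase commits sugar to glycolysis, and its platelet-type subunit fell in both mutants. PFKP had 66.4, 62.2 and 59.5 CPM in K148R, 124, 129 and 115 CPM in K148Q and 196, 198 and 202 CPM in parental libraries. The groups did not overlap, and PFKP fell 3.16-fold in K148R (log2 fold change -1.66 ± 0.063, adjusted p = 5.9e-12) and 1.61-fold in K148Q cells (log2 fold change -0.69 ± 0.061, adjusted p = 3.4e-07). It was also lower in K148R than in K148Q cells (log2 fold change -0.97 ± 0.063, adjusted p = 3.3e-09). PFKL, the liver-type subunit, had 295, 282 and 278 CPM in K148R, 366, 378 and 309 CPM in K148Q and 251, 261 and 262 CPM in parental libraries. It rose in K148Q cells (log2 fold change 0.44 ± 0.067, adjusted p = 7e-05) and was lower in K148R than in K148Q cells (log2 fold change -0.30 ± 0.067, adjusted p = 0.00098, -0.56 after GC and length correction). In K148R against parental cells it did not pass (log2 fold change 0.14 ± 0.067, adjusted p = 0.067), and its direction depended on the setting. It was called higher with only the 2 groups compared (0.13, adjusted p = 0.0023) and with a replicate block (0.14, adjusted p = 0.042), and lower after that correction (-0.23, adjusted p = 3.8e-07). PFKM, the muscle-type subunit, had only 1.52, 2.10 and 1.05 CPM in K148R, 2.09, 2.19 and 2.17 CPM in K148Q and 1.81, 1.66 and 1.251 CPM in parental libraries, and passed in no comparison. Its difference between K148R and K148Q cells was -0.47 ± 0.254 (adjusted p = 0.11), and -0.72 without K148R replicate 2 (adjusted p = 0.024). Exons of PFKM overlap those of SENP1 by 413 bases. Whether reads were counted by strand is not stated in the sources.

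Aldolase, which splits the phosphorylated sugar, showed a fall of its minor form beside a rise of its major form. ALDOC, the brain-type aldolase, had 9.69, 7.25 and 8.42 CPM in K148R, 12.6, 15.5 and 12.7 CPM in K148Q and 19.8, 18.2 and 18.1 CPM in parental libraries. The groups did not overlap, and ALDOC fell in K148R (log2 fold change -1.14 ± 0.124, adjusted p = 8.8e-07) and less so in K148Q cells (log2 fold change -0.46 ± 0.119, adjusted p = 0.0047). The mutants also differed (log2 fold change -0.68 ± 0.127, adjusted p = 0.00024). ALDOA, the main aldolase of the line, had 1705, 1629.6 and 1585 CPM in K148R, 1657, 1629 and 1413 CPM in K148Q and 1286, 1296 and 1309 CPM in parental libraries. Every mutant library lay above every parental library, and ALDOA rose in K148R (log2 fold change 0.34 ± 0.056, adjusted p = 6.7e-05, 0.21 after GC and length correction) and K148Q cells (log2 fold change 0.27 ± 0.056, adjusted p = 0.00095), with no call between the mutants.

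The other upper enzymes changed little. GPI, which isomerises glucose phosphate, averaged 579 ± 12.6 CPM in K148R, 762 ± 60.8 CPM in K148Q and 671 ± 13.3 CPM in parental cells (SD, n = 3 each). It fell in K148R (log2 fold change -0.21 ± 0.055, adjusted p = 0.0028, -0.44 after GC and length correction) and rose in K148Q cells (log2 fold change 0.18 ± 0.055, adjusted p = 0.012, 0.09 after that correction). The K148Q call was lost without K148Q replicate 1 (0.16, adjusted p = 0.051), K148Q replicate 2 (0.15, adjusted p = 0.056) or parental replicate 3 (0.17, adjusted p = 0.055). TPI1, which interconverts the triose phosphates, averaged 834 ± 33.4 CPM in K148R, 888 ± 80.4 CPM in K148Q and 735 ± 12.0 CPM in parental cells. TPI1 rose in both mutants (log2 fold change 0.18 ± 0.06, adjusted p = 0.012 in K148R and 0.27 ± 0.06, adjusted p = 0.0014 in K148Q cells). The TPI1 call in K148R was lost without K148R replicate 2 (0.16, adjusted p = 0.057) or parental replicate 3 (0.17, adjusted p = 0.056), and its change was 0.08 after GC and length correction. Between the mutants TPI1 did not pass (adjusted p = 0.18). It did without K148Q replicate 3 (-0.18, adjusted p = 2.1e-05), with total counts only (-0.15, adjusted p = 0.024) and after GC and length correction (-0.16, adjusted p = 8.1e-06).

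Of the enzymes that carry triose phosphate to pyruvate, 4 of 6 fell in K148R and 4 of 6 fell in K148Q cells, where 37.3% and 26.3% of all genes did so, while pyruvate kinase rose in both. ENO1, the main enolase, had 2209.5, 2208 and 2159.7 CPM in K148R, 2828, 2907 and 2498 CPM in K148Q and 3151, 3110.4 and 3121 CPM in parental libraries. The groups did not overlap, and ENO1 fell in K148R (log2 fold change -0.51 ± 0.051, adjusted p = 3.2e-07) and K148Q cells (log2 fold change -0.19 ± 0.051, adjusted p = 0.0061, -0.12 without K148Q replicate 3). ENO2, the neuronal enolase and a known hypoxia-induced gene, had 1.90, 2.24 and 2.91 CPM in K148R, 3.72, 3.21 and 4.09 CPM in K148Q and 13.0, 14.0 and 14.4 CPM in parental libraries. It fell 5.88-fold in K148R (log2 fold change -2.56 ± 0.155, adjusted p = 1.2e-09) and 3.74-fold in K148Q cells (log2 fold change -1.90 ± 0.146, adjusted p = 7.9e-08), and was lower in K148R than in K148Q cells (log2 fold change -0.65 ± 0.184, adjusted p = 0.0053). PGAM1, which moves the phosphate on phosphoglycerate, averaged 239.9 ± 7.51 CPM in K148R, 285 ± 24.9 CPM in K148Q and 352 ± 12.3 CPM in parental cells (SD, n = 3 each). PGAM1 fell in K148R (log2 fold change -0.55 ± 0.063, adjusted p = 1.3e-06) and K148Q cells (log2 fold change -0.31 ± 0.062, adjusted p = 0.00084). PGK1, the first enzyme of glycolysis to make ATP, averaged 768 ± 16.4 CPM in K148R, 778 ± 16.9 CPM in K148Q and 937 ± 11.7 CPM in parental cells. PGK1 fell to a like extent in K148R (log2 fold change -0.29 ± 0.042, adjusted p = 1.9e-05, -0.14 after GC and length correction) and K148Q cells (log2 fold change -0.27 ± 0.042, adjusted p = 8.7e-05).

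PKM, which encodes the pyruvate kinase of most tissues, averaged 1559 ± 55.8 CPM in K148R, 1224 ± 94.0 CPM in K148Q and 1084 ± 11.9 CPM in parental cells (SD, n = 3 each). It rose in K148R (log2 fold change 0.52 ± 0.054, adjusted p = 4.6e-07) and less in K148Q cells (log2 fold change 0.18 ± 0.054, adjusted p = 0.013, 0.10 after GC and length correction). The K148Q call was lost without K148Q replicate 1 (0.15, adjusted p = 0.057), K148Q replicate 2 (0.14, adjusted p = 0.057) or parental replicate 3 (0.17, adjusted p = 0.052). Gene counts do not separate the M1 and M2 splice forms of PKM. GAPDH, which oxidises glyceraldehyde phosphate, averaged 3510.1 ± 79.6 CPM in K148R, 3278 ± 233 CPM in K148Q and 3478 ± 33.1 CPM in parental cells. GAPDH passed in no comparison as reported. Its values were 0.01 ± 0.049 in K148R and -0.09 ± 0.049 in K148Q against parental cells, and 0.10 ± 0.049 between the mutants. GAPDH was called lower in K148Q than in parental cells after GC and length correction (-0.12, adjusted p = 0.00035) and with upper-quartile scaling (-0.13, adjusted p = 0.037). It was called lower in K148R than in parental cells after that correction (-0.10, adjusted p = 0.001). It was called higher in K148R than in K148Q cells with upper-quartile scaling (0.14, adjusted p = 0.022), with a replicate block (0.10, adjusted p = 0.032) and without K148Q replicate 2 (0.13, adjusted p = 0.034). GENCODE names 62 pseudogenes of GAPDH, 13 of PGAM1, 6 of LDHA, 5 of PKM and 4 each of TPI1 and ENO1, and a table of gene counts cannot show which copy such reads came from.

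Both subunits of lactate dehydrogenase, which converts pyruvate and lactate into each other, fell in both mutants and fell together. LDHA, the muscle-type subunit, had 541, 566 and 553 CPM in K148R, 897, 870.0 and 932 CPM in K148Q and 1244, 1219.6 and 1218 CPM in parental libraries. The groups did not overlap, with parental cells highest and K148R cells lowest. LDHA fell 2.22-fold in K148R (log2 fold change -1.15 ± 0.044, adjusted p = 5.8e-12) and 1.36-fold in K148Q cells (log2 fold change -0.45 ± 0.043, adjusted p = 8.6e-07), with a further difference between the mutants (log2 fold change -0.70 ± 0.044, adjusted p = 1.9e-09). LDHB, the heart-type subunit, had 514, 530.2 and 523 CPM in K148R, 903, 905 and 856 CPM in K148Q and 1213, 1242 and 1180.1 CPM in parental libraries. It fell 2.32-fold in K148R (log2 fold change -1.21 ± 0.044, adjusted p = 3.4e-12) and 1.36-fold in K148Q cells (log2 fold change -0.45 ± 0.043, adjusted p = 8.6e-07), again with lower values in K148R than in K148Q cells (log2 fold change -0.76 ± 0.044, adjusted p = 7.3e-10). PDK1, a kinase that shuts off pyruvate dehydrogenase and so keeps pyruvate from the mitochondria, averaged 18.4 ± 2.12 CPM in K148R, 19.6 ± 2.67 CPM in K148Q and 28.3 ± 0.294 CPM in parental cells (SD, n = 3 each). It fell in K148R (log2 fold change -0.62 ± 0.109, adjusted p = 0.00011) and K148Q cells (log2 fold change -0.53 ± 0.109, adjusted p = 0.00093), without a call between the mutants.

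**Figure D2:**
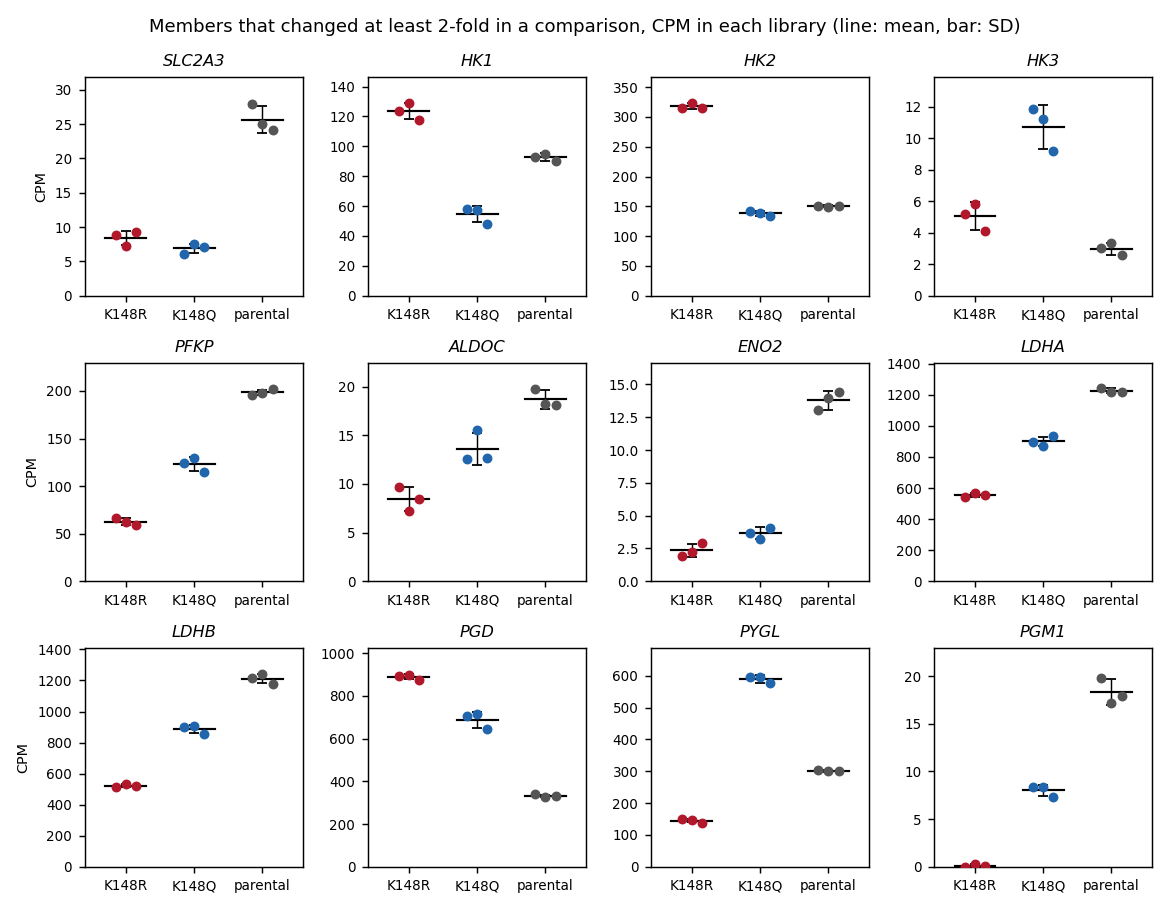
CPM of each library (points), with the group mean (line) and SD (bar), for genes that changed at least 2-fold in some comparison, in K148R, K148Q and parental cells from left to right. LDHA and LDHB step down together, to between 514 and 566 CPM in K148R libraries, against 856 to 932 CPM in K148Q libraries and 1180 to 1244 CPM in parental libraries.

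PFKFB3 and PFKFB4 encode the bifunctional enzymes that set the level of the main activator of phosphofructokinase. PFKFB3, the form with the higher kinase activity, had 17.7, 15.3 and 13.9 CPM in K148R, 24.1, 26.8 and 24.5 CPM in K148Q and 19.3, 18.7 and 17.6 CPM in parental libraries. It rose in K148Q cells (log2 fold change 0.44 ± 0.101, adjusted p = 0.0021) and was lower in K148R than in K148Q cells (log2 fold change -0.68 ± 0.102, adjusted p = 3e-05). In K148R against parental cells it did not pass (log2 fold change -0.24 ± 0.104, adjusted p = 0.051), but it was called lower in 7 of 15 alternatives. Among these were the fit without K148R replicate 1 (-0.34, adjusted p = 0.013) and the GC and length correction (-0.48, adjusted p = 4.8e-05). PFKFB4 had 27.0, 27.2 and 27.1 CPM in K148R, 20.5, 21.3 and 18.0 CPM in K148Q and 36.0, 36.0 and 38.8 CPM in parental libraries. It fell in K148R (log2 fold change -0.45 ± 0.082, adjusted p = 0.00017) and further in K148Q cells (log2 fold change -0.89 ± 0.085, adjusted p = 7.5e-07), and was higher in K148R than in K148Q cells (log2 fold change 0.44 ± 0.086, adjusted p = 0.00031).

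In the pentose phosphate pathway, PGD showed the largest rise of the 33 genes in K148R cells. PGD, phosphogluconate dehydrogenase, makes NADPH in the oxidative arm and had 891, 900.3 and 876 CPM in K148R, 704, 713 and 643 CPM in K148Q and 339, 326 and 329.9 CPM in parental libraries. The groups did not overlap, and PGD rose 2.68-fold in K148R (log2 fold change 1.42 ± 0.049, adjusted p = 2.1e-12) and 2.07-fold in K148Q cells (log2 fold change 1.05 ± 0.049, adjusted p = 4e-10). It was also higher in K148R than in K148Q cells (log2 fold change 0.37 ± 0.048, adjusted p = 6.5e-06). TKT, the transketolase of the non-oxidative arm, averaged 533 ± 12.0 CPM in K148R, 736 ± 62.3 CPM in K148Q and 646 ± 5.63 CPM in parental cells (SD, n = 3 each). TKT was lower in K148R (log2 fold change -0.28 ± 0.056, adjusted p = 0.00042, -0.66 after GC and length correction) and higher in K148Q than in parental cells (log2 fold change 0.19 ± 0.056, adjusted p = 0.012, 0.07 after that correction). The K148Q call was lost without K148Q replicate 1 (0.15, adjusted p = 0.058) or K148Q replicate 2 (0.15, adjusted p = 0.052). TALDO1, the transaldolase, averaged 482 ± 12.8 CPM in K148R, 514 ± 45.1 CPM in K148Q and 468 ± 2.67 CPM in parental cells. TALDO1 passed in no comparison as reported. Without K148Q replicate 3 it was called higher in K148Q than in parental cells (0.21, adjusted p = 4.6e-06) and lower in K148R than in K148Q cells (-0.18, adjusted p = 4.6e-05). Both differences also passed after GC and length correction (0.11, adjusted p = 0.0035 and -0.16, adjusted p = 3.6e-05) and with total counts only (0.15, adjusted p = 0.031 and -0.15, adjusted p = 0.021).

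The other 11 genes of the pathway and of ribose phosphate use changed in both directions: 4 rose and 6 fell in K148R cells, and 1 rose and 6 fell in K148Q cells. RPE and RPIA, which interconvert the pentose phosphates, fell in K148R cells by 1.56 ± 0.119 (adjusted p = 2.8e-08) and 1.16 ± 0.079 (adjusted p = 4.4e-09) on the log2 scale, and in K148Q cells by 0.69 ± 0.114 (adjusted p = 2e-04) and 0.33 ± 0.076 (adjusted p = 0.0023). RPE averaged 26.6 ± 2.23 CPM in K148R, 48.8 ± 10.2 CPM in K148Q and 78.5 ± 1.89 CPM in parental cells. RPIA averaged 33.5 ± 2.67 CPM in K148R, 59.5 ± 4.36 CPM in K148Q and 74.6 ± 2.49 CPM in parental cells (SD, n = 3 each). PRPS1 and PRPS2, which turn ribose phosphate into the precursor of nucleotides, fell 2.93-fold and 2.91-fold in K148R cells. PRPS1 had 35.8, 38.8 and 35.9 CPM in K148R, 94.8, 98.6 and 92.1 CPM in K148Q and 108, 108 and 107 CPM in parental libraries (log2 fold change -1.55 ± 0.062, adjusted p = 1.1e-11 in K148R and log2 fold change -0.18 ± 0.059, adjusted p = 0.02 in K148Q cells). PRPS2 had 19.8, 23.0 and 23.6 CPM in K148R, 56.2, 49.3 and 67.1 CPM in K148Q and 62.8, 64.5 and 65.7 CPM in parental libraries (log2 fold change -1.54 ± 0.106, adjusted p = 4.9e-09 in K148R and log2 fold change -0.16 ± 0.099, adjusted p = 0.19, not called, in K148Q cells). The falls in K148R cells go with the fall of the cell division genes given above (median log2 fold change -3.05), whose part in them was not tested. RPE and RPIA also fell in K148Q cells, where the median of the cell division genes was -0.18. TKTL1, a relative of transketolase, had 77 counts in K148R, 0 in K148Q (under a floor of 3 counts over the group, or 0.0651 CPM) and 5 in parental libraries, a ratio of 14.8 in K148R over parental cells (95% counting interval 6.05 to 46.7).

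**Figure D3:**
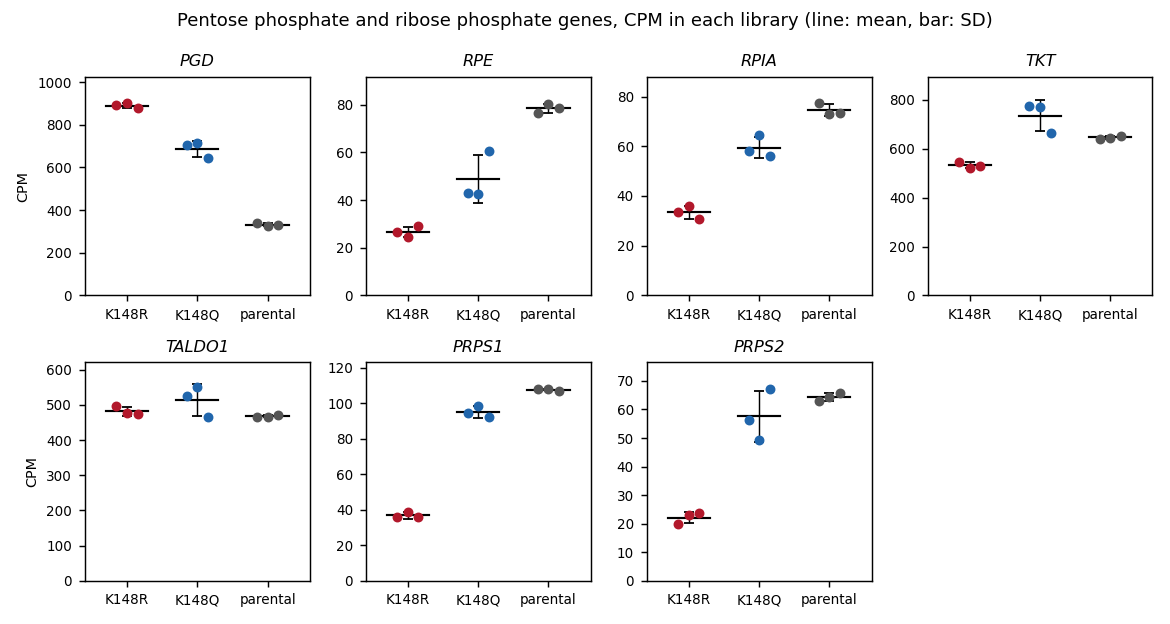
CPM of each library (points), with the group mean (line) and SD (bar), for PGD of the oxidative arm and for genes of the non-oxidative arm and of ribose phosphate use, in K148R, K148Q and parental cells from left to right. PGD is raised in both mutants, at 876 to 900.3 CPM in K148R and 643 to 713 CPM in K148Q libraries against 326 to 339 CPM in parental libraries, while PRPS1 and PRPS2 are low in K148R libraries.

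Among the genes of glycogen turnover, PYGL moved in opposite directions in the mutants. PYGL, the liver-type phosphorylase that releases glucose phosphate from glycogen, had 150.0, 147.5 and 138 CPM in K148R, 597, 595 and 577 CPM in K148Q and 304, 299 and 300.1 CPM in parental libraries. The groups did not overlap. PYGL fell 2.07-fold in K148R (log2 fold change -1.05 ± 0.049, adjusted p = 5.2e-11) and rose 1.96-fold in K148Q cells (log2 fold change 0.97 ± 0.048, adjusted p = 7.2e-10), a 4.06-fold difference between the mutants (log2 fold change -2.02 ± 0.049, adjusted p = 7.3e-14). PYGB, the brain-type phosphorylase, had 127, 127 and 119.5 CPM in K148R, 111, 110.5 and 99.1 CPM in K148Q and 74.8, 74.0 and 78.3 CPM in parental libraries. It rose in K148R (log2 fold change 0.72 ± 0.063, adjusted p = 7.9e-08) and K148Q cells (log2 fold change 0.50 ± 0.063, adjusted p = 1.4e-05). Its difference between the mutants (log2 fold change 0.22 ± 0.062, adjusted p = 0.0055) was lost after correction for GC content and length (0.05, adjusted p = 0.26).

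GYS1, the glycogen synthase of most tissues, had 189, 188 and 181 CPM in K148R, 168, 162 and 141 CPM in K148Q and 94.4, 102 and 93.5 CPM in parental libraries. It rose 1.93-fold in K148R (log2 fold change 0.95 ± 0.068, adjusted p = 8.5e-09) and 1.63-fold in K148Q cells (log2 fold change 0.70 ± 0.068, adjusted p = 9.6e-07). GYS1 was slightly higher in K148R than in K148Q cells (log2 fold change 0.25 ± 0.067, adjusted p = 0.0043, 0.10 after GC and length correction and 0.16 without K148Q replicate 3). GBE1, the branching enzyme, averaged 53.5 ± 3.82 CPM in K148R, 52.7 ± 1.97 CPM in K148Q and 51.9 ± 0.328 CPM in parental cells (SD, n = 3 each), and its 3 differences, 0.02 to 0.04, did not pass. After GC and length correction GBE1 was called higher in K148R than in parental cells (0.24, adjusted p = 0.00035) and than in K148Q cells (0.16, adjusted p = 0.0079). Of 27 further glycogen genes, 19 were tested, of which 8 rose and 5 fell in K148R and 8 rose and 1 fell in K148Q cells. PPP1R3A, a subunit that targets protein phosphatase to glycogen and is best known from muscle, had 0.980, 2.64 and 2.48 CPM in K148R, 24.0, 21.2 and 33.8 CPM in K148Q and 0.724, 0.217 and 0.715 CPM in parental libraries. It rose in K148R (log2 fold change 1.78 ± 0.526, adjusted p = 0.0091) and far more in K148Q cells (log2 fold change 5.51 ± 0.361, adjusted p = 2e-07). PPP1R3B, the liver form of that subunit, had 0.599, 0.339 and 0.310 CPM in K148R, 1.96, 1.44 and 1.80 CPM in K148Q and 4.10, 5.50 and 4.83 CPM in parental libraries. PPP1R3B fell in both mutants (log2 fold change -3.47 ± 0.269, adjusted p = 1.9e-08 in K148R and log2 fold change -1.46 ± 0.209, adjusted p = 4.2e-05 in K148Q cells). STBD1, which anchors glycogen to membranes, averaged 1.80 ± 0.0924 CPM in K148R, 1.78 ± 0.235 CPM in K148Q and 0.858 ± 0.447 CPM in parental cells. STBD1 rose by 1.11 ± 0.306 (adjusted p = 0.0042) in K148R and 1.09 ± 0.309 (adjusted p = 0.0085) in K148Q cells. PHKG1, a catalytic subunit of phosphorylase kinase, was under 2 CPM everywhere and was higher in K148R than in K148Q cells (log2 fold change 1.29 ± 0.421, adjusted p = 0.013).

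PGM1, which interconverts the glucose phosphates that enter and leave glycogen, was nearly undetected in K148R cells. It had 0, 0.271 and 0.0619 CPM in K148R, 8.34, 8.35 and 7.32 CPM in K148Q and 19.8, 17.1 and 17.9 CPM in parental libraries. The K148R libraries held 0, 4 and 1 counts, 5 in all, against 368 counts in K148Q and 867 counts in parental libraries. At these library sizes the K148R level was 181-fold lower than the parental level (95% counting interval 77.3 to 559) and 78.7-fold lower than the K148Q level (33.4 to 244), and intervals cover counting error only. The edgeR test called K148R lower than parental (adjusted p = 1.1e-11) and K148Q cells (adjusted p = 4.8e-10), and K148Q lower than parental cells (log2 fold change -1.20 ± 0.146, adjusted p = 9.5e-06). The related PGM2 was more abundant, averaging 48.1 ± 2.20 CPM in K148R, 82.9 ± 7.45 CPM in K148Q and 61.7 ± 2.65 CPM in parental cells (SD, n = 3 each). PGM2 fell in K148R (log2 fold change -0.36 ± 0.076, adjusted p = 0.00062) and rose in K148Q cells (log2 fold change 0.43 ± 0.075, adjusted p = 0.00026).

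The genes next to PGM1 on chromosome 1 were examined after its low level in K148R cells was seen. PGM1 lies at chr1:63593276-63660245 on the plus strand of GRCh38, per GENCODE v29, and its neighbour ITGB3BP, which encodes a centromere protein, at chr1:63440770-63593721 on the minus strand, so that their ends overlap and share 197 bases of exon. ITGB3BP had 1.74, 1.08 and 1.92 CPM in K148R, 13.9, 13.8 and 26.6 CPM in K148Q and 39.7, 37.9 and 38.8 CPM in parental libraries. It fell 24.1-fold in K148R (log2 fold change -4.59 ± 0.294, adjusted p = 6e-08) and 2.13-fold in K148Q cells (log2 fold change -1.09 ± 0.213, adjusted p = 0.0013), with K148Q replicate 3 well above the other K148Q libraries. EFCAB7, a ciliary gene at chr1:63523372-63572693 inside ITGB3BP on the other strand, had 1.52, 1.36 and 1.61 CPM in K148R, 3.13, 2.26 and 4.22 CPM in K148Q and 7.60, 7.96 and 8.88 CPM in parental libraries. It fell in K148R (log2 fold change -2.43 ± 0.206, adjusted p = 5.4e-08) and K148Q cells (log2 fold change -1.34 ± 0.183, adjusted p = 2.9e-05). ALG6, a glucosyltransferase of protein glycosylation beyond ITGB3BP, averaged 11.6 ± 3.19 CPM in K148R, 21.03 ± 5.95 CPM in K148Q and 24.2 ± 0.721 CPM in parental cells (SD, n = 3 each). ALG6 fell in K148R cells (log2 fold change -1.06 ± 0.205, adjusted p = 0.00054), with -0.20 ± 0.195 (adjusted p = 0.42) in K148Q cells. ATG4C, an autophagy protease further out, averaged 21.6 ± 3.46 CPM in K148R, 16.6 ± 6.36 CPM in K148Q and 22.1 ± 1.32 CPM in parental cells. ATG4C passed in no comparison. All of these neighbours lie on the same side of PGM1. On its other side, ROR1 had 2 counts in K148R libraries and 0 in the others, and UBE2U had 0 in all 9 libraries. Their counts therefore cannot show whether lower levels extend past PGM1 on that side. Where reads fall on overlapping exons, counts of neighbouring genes cannot be told apart without the strand of counting, which the sources do not state.

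**Figure D4:**
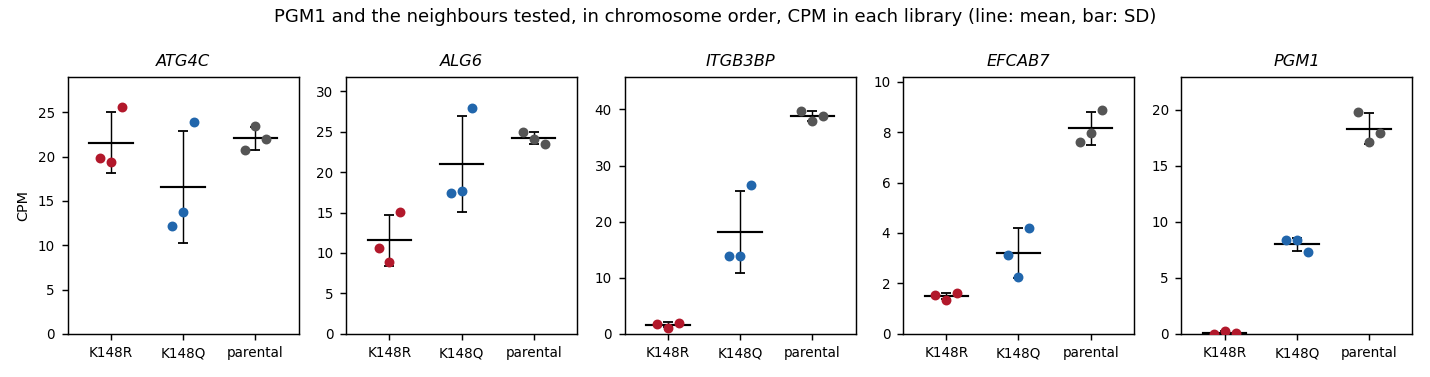
CPM of each library (points), with the group mean (line) and SD (bar), for PGM1 and its detected neighbours in their order on chromosome 1, in K148R, K148Q and parental cells from left to right. ALG6, ITGB3BP, EFCAB7 and PGM1 are lowest in the K148R libraries, while ATG4C overlaps between the genotypes.

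Isoenzymes were also compared inside each library, which removes the library scaling. Levels per kilobase of exon, taken from GENCODE v29, were used for these shares, as means of 3 libraries. SLC2A1 made up 97.1% of the SLC2A1 and SLC2A3 level in K148R, 96.7% in K148Q and 86.3% in parental cells. PFKL made up 85.1% of the phosphofructokinase level in K148R, 78.2% in K148Q and 62.3% in parental cells, and PFKP 14.6%, 21.5% and 37.5% in the same order. With the length of the longest transcript, the parental order of PFKL and PFKP was reversed (PFKL 37.3%). HK2 held 65.6% of the hexokinase level in K148R, 60.5% in K148Q and 54.9% in parental cells, and HK3 held 2.01%, 9.10% and 2.10%. PYGL held 59.2% of the PYGL and PYGB level in K148R, 87.3% in K148Q and 83.2% in parental cells. SLC16A3 held 85.5% of the level of the 2 lactate carriers in K148R, 75.7% in K148Q and 67.3% in parental cells. LDHB held 63.9%, 64.9% and 64.9% of the lactate dehydrogenase level in that order, so the subunit balance hardly differed while the summed level did.

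The log2 ratio of PFKP to PFKL was -2.18 in K148R, -1.51 in K148Q and -0.38 in parental libraries on average, a difference of -1.80 in K148R and -1.13 in K148Q from parental libraries with no overlap. For HK2 to HK1 the mutants were both above parental libraries (differences 0.67 in K148R and 0.64 in K148Q), and they overlapped each other (0.02, exact permutation p = 0.6). PFKFB4 to PFKFB3 stood at 0.80 in K148R, -0.33 in K148Q and 1.00 in parental libraries, so that K148Q libraries alone lay apart from parental libraries. GYS1 to PYGL was 0.36 in K148R, -1.91 in K148Q and -1.64 in parental libraries, a difference of 2.00 in K148R and -0.27 in K148Q from parental libraries. This ratio leaves out the phosphorylase PYGB, which rose in both mutants, so it does not set synthesis against all of breakdown. PYGB held 40.8% of the PYGL and PYGB level per kilobase in K148R, 12.7% in K148Q and 16.8% in parental cells. Of the 12 ratios in 3 comparisons, 36 differences in all, none could pass, because the smallest p of an exact two-sided permutation test of 3 against 3 libraries is 0.1. The differences from parental libraries given here all had that p, except PFKFB4 to PFKFB3 in K148R libraries (-0.20, exact permutation p = 0.3).

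**Figure D5:**
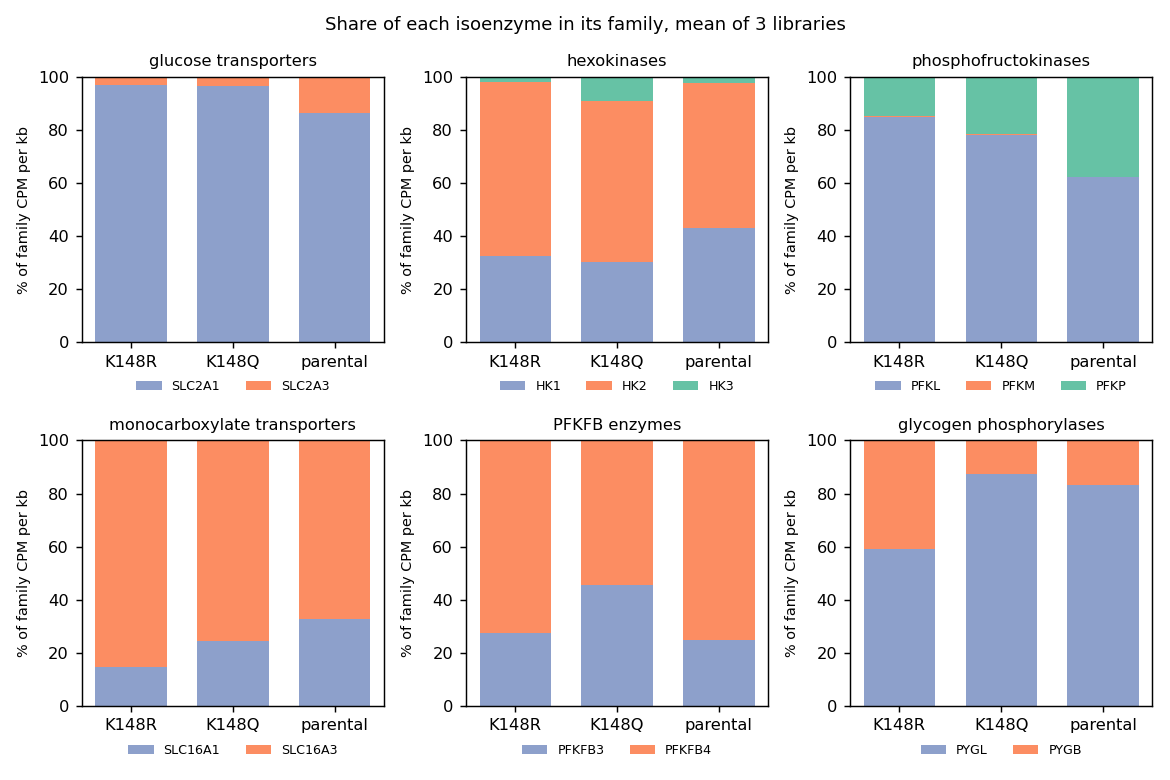
Share of each gene in the summed level per kilobase of its isoenzyme family (percent, mean of 3 libraries), with K148R, K148Q and parental cells in turn within each family. PFKP takes 14.6% in K148R and 21.5% in K148Q cells against 37.5% in parental cells, and PYGL 59.2% in K148R and 87.3% in K148Q cells against 83.2% in parental cells.

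Across the 33 genes, the order of levels per kilobase was led in each genotype by GAPDH (1580, 1470 and 1560 CPM per kilobase in K148R, K148Q and parental cells) and then ENO1 (912, 1140 and 1300). PGM1 stood last in K148R cells at 0.0309 CPM per kilobase. PFKM stood last in K148Q and parental cells at 0.450 and 0.330 CPM per kilobase.

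Other genes of the pathways were counted from lists and named where they passed and differed at least 2-fold, besides PGM2 and PDP2, which are set beside related genes. The counts of these lists stand beside the backgrounds given above for all genes tested. Of 17 further glycolysis genes, 8 were tested. In K148R cells 1 rose and 4 fell, and in K148Q cells 2 rose and 4 fell. GALM, which turns glucose into the form that hexokinase uses, averaged 13.5 ± 1.93 CPM in K148R, 25.1 ± 0.295 CPM in K148Q and 44.6 ± 1.38 CPM in parental cells (SD, n = 3 each). GALM fell in K148R (log2 fold change -1.73 ± 0.097, adjusted p = 5.1e-10) and K148Q cells (log2 fold change -0.83 ± 0.092, adjusted p = 3.8e-06). LDHD, a mitochondrial dehydrogenase of D-lactate, was low, with 0.163, 0.610 and 0.434 CPM in K148R, 0.652, 0.889 and 0.372 CPM in K148Q and 3.50, 3.11 and 3.34 CPM in parental libraries. It fell in both mutants (log2 fold change -3.08 ± 0.336, adjusted p = 9e-07 in K148R and log2 fold change -2.38 ± 0.309, adjusted p = 1.7e-05 in K148Q cells).

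Of 20 further sugar and monocarboxylate transporters, 12 were tested, of which 6 rose and 4 fell in K148R and 6 rose and 1 fell in K148Q cells. SLC2A5, the fructose transporter GLUT5, had 40.6, 37.5 and 37.1 CPM in K148R, 261, 259.7 and 230.5 CPM in K148Q and 227, 228 and 228 CPM in parental libraries. It fell 5.92-fold in K148R against parental cells (log2 fold change -2.56 ± 0.066, adjusted p = 9.3e-14) and did not pass in K148Q cells (log2 fold change 0.14 ± 0.06, adjusted p = 0.062). SLC37A4, which carries glucose phosphate into the endoplasmic reticulum, had 10.9, 10.3 and 8.86 CPM in K148R, 53.1, 55.6 and 46.9 CPM in K148Q and 36.0, 37.4 and 34.4 CPM in parental libraries. Like PYGL, it fell in K148R (log2 fold change -1.84 ± 0.101, adjusted p = 3.8e-10) and rose in K148Q cells (log2 fold change 0.53 ± 0.089, adjusted p = 0.00018). SLC37A2, a related carrier of macrophages, averaged 77.5 ± 3.07 CPM in K148R, 35.7 ± 2.73 CPM in K148Q and 20.7 ± 0.859 CPM in parental cells (SD, n = 3 each). SLC37A2 rose in K148R (log2 fold change 1.90 ± 0.079, adjusted p = 1.5e-11) and K148Q cells (log2 fold change 0.79 ± 0.081, adjusted p = 1.7e-06). SLC2A6, a lysosomal sugar transporter, averaged 36.7 ± 1.98 CPM in K148R, 35.7 ± 3.79 CPM in K148Q and 15.8 ± 1.30 CPM in parental cells. SLC2A6 rose by a like amount in K148R (1.22 ± 0.099, adjusted p = 3.4e-08) and K148Q cells (1.18 ± 0.1, adjusted p = 2.2e-07). SLC2A11 averaged 9.35 ± 1.49 CPM in K148R, 3.59 ± 0.263 CPM in K148Q and 4.25 ± 0.754 CPM in parental cells. SLC2A11 rose in K148R cells (1.13 ± 0.161, adjusted p = 1.5e-05).

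Genes of the pyruvate switch and of gluconeogenesis, the route back to glucose, changed in both directions. Of 22 tested, 6 rose and 15 fell in K148R cells and 5 rose and 8 fell in K148Q cells, where 37.8% of all genes rose and 37.3% fell in K148R cells and 27% rose and 26.3% fell in K148Q cells. FBP1, which removes a phosphate from fructose bisphosphate in gluconeogenesis, had 6.91, 4.95 and 4.46 CPM in K148R, 35.5, 35.1 and 29.3 CPM in K148Q and 23.6, 25.3 and 23.2 CPM in parental libraries. It fell 4.38-fold in K148R (log2 fold change -2.13 ± 0.141, adjusted p = 3.3e-09) and rose in K148Q cells (log2 fold change 0.47 ± 0.119, adjusted p = 0.0042). GPD2, the mitochondrial glycerol phosphate dehydrogenase, went the same ways, with 9.33 ± 2.15 CPM in K148R, 33.1 ± 5.12 CPM in K148Q and 23.4 ± 0.941 CPM in parental cells on average (SD, n = 3 each). GPD2 showed a fall in K148R (log2 fold change -1.32 ± 0.147, adjusted p = 1.1e-06) and a rise in K148Q cells (log2 fold change 0.50 ± 0.133, adjusted p = 0.0054). PCK2, the mitochondrial form of phosphoenolpyruvate carboxykinase, averaged 8.23 ± 1.59 CPM in K148R, 16.4 ± 1.96 CPM in K148Q and 26.3 ± 2.37 CPM in parental cells. PCK2 fell in K148R (log2 fold change -1.66 ± 0.136, adjusted p = 3.6e-08) and K148Q cells (log2 fold change -0.68 ± 0.128, adjusted p = 0.00043).

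PC, the carboxylase that turns pyruvate into oxaloacetate, had 19.8, 18.0 and 19.9 CPM in K148R, 8.99, 8.55 and 6.14 CPM in K148Q and 4.76, 5.50 and 5.96 CPM in parental libraries. It rose in K148R (log2 fold change 1.83 ± 0.142, adjusted p = 1.9e-08) and K148Q cells (log2 fold change 0.54 ± 0.155, adjusted p = 0.0088). PDP1, a phosphatase that switches pyruvate dehydrogenase on, had 72.0, 72.9 and 75.4 CPM in K148R, 23.1, 21.8 and 30.3 CPM in K148Q and 22.9, 21.8 and 21.6 CPM in parental libraries. Its rise in K148R cells (log2 fold change 1.73 ± 0.103, adjusted p = 9.8e-10) was not matched by a call in K148Q cells (log2 fold change 0.18 ± 0.108, adjusted p = 0.17). The related phosphatase PDP2 averaged 12.2 ± 1.11 CPM in K148R, 14.65 ± 1.37 CPM in K148Q and 23.6 ± 1.35 CPM in parental cells. PDP2 fell in K148R (log2 fold change -0.94 ± 0.104, adjusted p = 1.1e-06) and K148Q cells (log2 fold change -0.69 ± 0.103, adjusted p = 6.7e-05). PDK2, a kinase acting against these phosphatases, averaged 44.8 ± 2.22 CPM in K148R, 23.8 ± 4.45 CPM in K148Q and 20.3 ± 0.266 CPM in parental cells (SD, n = 3 each). PDK2 rose in K148R cells as well (log2 fold change 1.14 ± 0.11, adjusted p = 2.3e-07), while the related PDK1 fell.

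Of 16 tested regulators of glucose sensing and hypoxia, 10 rose and 1 fell in K148R and 7 rose and 4 fell in K148Q cells. EPAS1, which encodes the hypoxia-inducible factor HIF-2 alpha, had 12.5, 9.89 and 12.1 CPM in K148R, 6.97, 6.91 and 7.93 CPM in K148Q and 0.904, 1.01 and 1.251 CPM in parental libraries. It rose 10.8-fold in K148R (log2 fold change 3.44 ± 0.178, adjusted p = 1.9e-10) and 6.83-fold in K148Q cells (log2 fold change 2.77 ± 0.189, adjusted p = 2.2e-08). TXNIP, a brake on glucose uptake, had 464, 477 and 497 CPM in K148R, 194, 204 and 206 CPM in K148Q and 260.2, 257 and 257 CPM in parental libraries. There was a rise in K148R (log2 fold change 0.89 ± 0.049, adjusted p = 3.4e-10) and a fall in K148Q cells (log2 fold change -0.36 ± 0.049, adjusted p = 2.5e-05). MLXIPL, a glucose-responsive transcription factor, averaged 4.39 ± 0.425 CPM in K148R, 10.3 ± 1.90 CPM in K148Q and 3.44 ± 0.181 CPM in parental cells (SD, n = 3 each). MLXIPL rose in K148Q cells (log2 fold change 1.57 ± 0.162, adjusted p = 1.7e-06). PRKAG2, a subunit of the energy sensor AMPK, averaged 48.1 ± 0.785 CPM in K148R, 28.4 ± 3.56 CPM in K148Q and 20.5 ± 2.17 CPM in parental cells. PRKAG2 rose in K148R (log2 fold change 1.23 ± 0.101, adjusted p = 3.6e-08) and K148Q cells (log2 fold change 0.47 ± 0.103, adjusted p = 0.0015).

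Hypoxia-induced genes outside the 33 changed in both directions: of 14 tested, 5 rose and 8 fell in K148R and 1 rose and 9 fell in K148Q cells. BNIP3, a mitochondrial death and autophagy protein, had 13.0, 12.6 and 13.6 CPM in K148R, 13.7, 13.1 and 16.0 CPM in K148Q and 38.2, 34.9 and 35.2 CPM in parental libraries. BNIP3 fell in K148R (log2 fold change -1.46 ± 0.095, adjusted p = 2.6e-09) and K148Q cells (log2 fold change -1.34 ± 0.095, adjusted p = 3.4e-08). HILPDA, a lipid droplet protein, averaged 11.0 ± 1.11 CPM in K148R, 18.4 ± 1.71 CPM in K148Q and 29.6 ± 0.479 CPM in parental cells (SD, n = 3 each). HILPDA fell in K148R (log2 fold change -1.43 ± 0.102, adjusted p = 7.7e-09) and K148Q cells (log2 fold change -0.68 ± 0.098, adjusted p = 4.2e-05). NDRG1 averaged 46.6 ± 3.58 CPM in K148R, 88.7 ± 5.18 CPM in K148Q and 163 ± 2.51 CPM in parental cells. NDRG1 fell in both mutants (log2 fold change -1.81 ± 0.069, adjusted p = 5.9e-12 in K148R and log2 fold change -0.88 ± 0.066, adjusted p = 6.6e-08 in K148Q cells), and so did PPFIA4. PPFIA4 averaged 2.29 ± 0.461 CPM in K148R, 2.25 ± 0.347 CPM in K148Q and 9.63 ± 1.06 CPM in parental cells (log2 fold change -2.05 ± 0.172, adjusted p = 4.7e-08 in K148R and log2 fold change -2.10 ± 0.175, adjusted p = 1.9e-07 in K148Q cells). DDIT4, an inhibitor of the growth kinase mTORC1, had 16.7, 16.7 and 17.5 CPM in K148R, 5.93, 6.77 and 4.71 CPM in K148Q and 11.4, 9.62 and 10.1 CPM in parental libraries. It rose in K148R (log2 fold change 0.70 ± 0.12, adjusted p = 8.5e-05) and fell in K148Q cells (log2 fold change -0.85 ± 0.135, adjusted p = 0.00012). BNIP3L, a relative of BNIP3, did the same, with 161, 154 and 177 CPM in K148R, 48.0, 48.1 and 77.4 CPM in K148Q and 112, 119 and 114 CPM in parental libraries. BNIP3L showed a rise in K148R (log2 fold change 0.51 ± 0.151, adjusted p = 0.01) and a fall in K148Q cells (log2 fold change -0.99 ± 0.157, adjusted p = 0.00037).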

How the data were processed

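The authors deposited raw read counts per gene symbol for 9 libraries, 3 per genotype, grouped here by the genotype in the labels. The build was GRCh38, and the tools were featureCounts 1.5.2, HISAT2 2.0.5 and FastQC 0.11.7, per the submitters' processing notes. The sources used here give neither the annotation nor the strand of counting.

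With R 4.3.3, counts were analysed in edgeR 4.0.16 after filterByExpr by group (minimum count 10, minimum total 15), which left 12845 genes, with TMM scaling and the robust quasi-likelihood F test on all 9 libraries, a term per genotype and no replicate term. Adjusted p is Benjamini-Hochberg over all genes tested. The standard error is the log2 fold change divided by the square root of F. The common biological coefficient of variation was 0.074. Isoenzyme ratios used counts plus 1. Alternatives were DESeq2 1.42.0, other scalings and filters, a replicate block, fits of 2 groups, leaving out each library, and a GC content and length correction.

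The members and lists were chosen with earlier results of these data known. Values in every library are given for members that changed at least 2-fold or belong to an isoenzyme pair. From other lists, up to 6 genes that passed and changed at least 2-fold are named, the largest first. PGM2 and PDP2 are named as well, beside related genes. Some genes that this rule names are not reported here.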

Additional observations from a re-analysis of the deposited data

Results flagged for a closer look

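For 5 of the 33 genes, K148R and K148Q cells were each called against parental cells, in opposite directions, which is 15.2% of them, where 1258 of all 12845 genes tested (9.79%) did so. Genes chosen for opposite calls differ between the mutants by that choice: all 1258 were also called between K148R and K148Q cells. Both comparisons share the parental libraries. The log2 fold change of K148R against K148Q cells was -2.02 for PYGL (adjusted p = 7.3e-14), 1.21 for HK2 (adjusted p = 1.6e-11), 1.18 for HK1 (adjusted p = 2.1e-09), -0.46 for TKT (adjusted p = 3.3e-06) and -0.40 for GPI (adjusted p = 1.4e-05), all from edgeR's quasi-likelihood test. Every K148R library also lay on the same side of every K148Q library for each of the 5 genes, at 3 libraries per genotype. That too follows largely from the choice, and over all genes tested 37% lay above and 34.5% below. The opposite directions of HK2, TKT and GPI rest on small K148Q changes against parental cells, of -0.12, 0.19 and 0.18, whose calls were lost when some libraries were left out. For PYGL and HK1 the K148Q changes, 0.97 and -0.76, were called in every alternative tried.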

How the results depend on the processing

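Of 99 results (33 genes in 3 comparisons), 79 kept their call in all 15 alternatives tried. The 20 others were 5 in K148R against parental, 7 in K148Q against parental and 8 in K148R against K148Q cells. A sign turned in 25 cases, for values not called in the analysis reported. With upper-quartile scaling, these were GBE1 at -0.02 in K148Q against parental and PGK1 at 0.02 in K148R against K148Q cells. With total counts only, GAPDH was -0.03, TALDO1 0.00 and GBE1 0.00 in K148R against parental cells, and SLC16A3 -0.01 and GBE1 -0.04 between the mutants. With no filter, GAPDH was -0.01 in K148R against parental cells and GBE1 0.00 between the mutants. With the GC content and length correction, chosen after seeing the data, PFKL was -0.23, GAPDH -0.10 and TALDO1 -0.05 in K148R against parental cells, and SLC16A3 -0.17 and PGK1 0.08 between the mutants. PFKL (adjusted p = 3.8e-07), GAPDH (adjusted p = 0.001) and SLC16A3 (adjusted p = 8.3e-05) were then called. With only the compared groups, GBE1 was -0.01 between the mutants. Leaving out 1 library turned, in K148R against parental cells, GAPDH to 0.00 and GBE1 to -0.01 (K148R replicate 2) and PFKM to 0.19, 0.09 and 0.01 (K148R replicate 3, parental replicates 1 and 2), and between the mutants GBE1 to -0.01 and -0.03 (K148Q replicate 1, K148R replicate 2), and SLC16A3 to -0.04, ALDOA to -0.02 and PDK1 to 0.01 (K148Q replicate 3). With each library left out in turn, PFKM ran from -0.27 to 0.19, GAPDH from 0.00 to 0.03 and GBE1 from -0.01 to 0.10 in K148R against parental cells, and ALDOA from -0.02 to 0.10, PDK1 from -0.16 to 0.01, SLC16A3 from -0.04 to 0.09 and GBE1 from -0.03 to 0.08 between the mutants. The cause was not tested.

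Over the libraries left out in turn, 10 to 11 of the 33 genes rose and 16 to 17 fell in K148R against parental cells, 11 to 15 rose and 13 to 14 fell in K148Q against parental cells, and 8 to 9 were higher and 15 to 17 lower in K148R than in K148Q cells. Same-numbered libraries deviated together at correlations of -0.02 to 0.27, and differently numbered ones at -0.24 to 0.17. The highest was between replicate 3 of K148Q and replicate 3 of K148R. Whether libraries of the same number shared a batch is not in the labels and was not tested. With a replicate block, 12 genes rose and 17 fell in K148R and 15 and 14 in K148Q against parental cells, and 9 were higher and 15 lower in K148R than in K148Q cells. Depth limits PGM1 in K148R cells, TKTL1 and SLC2A14, which rest on few counts.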
